A study of Mus musculus with 8 samples.

Results

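The genes described here encode the steps by which a cell takes up glucose, splits it to pyruvate, turns pyruvate into lactate or passes it to the mitochondria, and stores glucose as glycogen. No threshold on measured values picked them, but the list was drawn up with earlier results of these data known. It names 40 genes: 2 glucose transporters, 10 genes of the hexose phosphate steps, 12 of the triose phosphate steps, 4 of lactate and its transport, 6 of the pyruvate dehydrogenase complex and its kinases, and 6 of glycogen. A probe was found for 39 of the 40 genes, among 23473 gene probes on each array. All 39 were above background on every array and all 39 were tested, within 21670 probes tested in all. Fbp1 has no probe under its name and was not analysed here. The platform symbols Pgm2 and Fbp2 are each also an older name of another gene in RefSeq, Pgm1 for the first and Fbp1 and Khsrp for the second. Which gene these probes measure is therefore not settled. The names Eno1, Gpi1 and Pdk1 have likewise been used for Eno1b, Pigq and Pdpk1.

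RNA was measured in embryoid bodies, aggregates of differentiating cells, grown from a mouse embryonic stem cell line that the labels call iTbx6 T-GFP. The 4 groups were DoxOn_day2 and DoxOFF_day2, with and without doxycycline (Dox) at day 2, and DoxOn_day4 and DoxOFF_day4, with and without Dox at day 4. All groups carried the same line and were cultured in a serum-free differentiation (SFD) medium to which no growth factors had been added, and after 2 days the bodies were taken apart and reaggregated. The study asked how gene expression differs with and without Dox in such cells. No cells without the transgene received Dox, so an effect of Dox itself and one of Tbx6 cannot be told apart. The time at which Dox was added is not stated, nor are the promoter of the transgene and whether the line is 1 clone. Each group had 2 single-colour arrays, 8 in all. No label tells whether the 2 were grown separately, and p-values here then cover the spread of these arrays alone, which could be technical.

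Glycolysis yields ATP without oxygen and supplies carbon for growth, and its genes are strongly expressed in pluripotent stem cells and in the early mesoderm of the embryo's tail end. Many of the genes are activated by the hypoxia-inducible factors (HIF), which build up when oxygen or the prolyl hydroxylases that mark them for destruction are lacking. ACGTG is a form of the core at which HIF binds DNA. Other forms of that core were not searched here. Pyruvate dehydrogenase kinases switch off the entry of pyruvate into the citric acid cycle, and lactate dehydrogenases and monocarboxylate transporters handle the pyruvate and lactate that remain.

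The core ACGTG was searched on both strands in the RefSeq promoter windows of GRCm38.p6 (250 bases before to 50 after each transcription start). It was present in 19.6% of all 32851 windows and in 25 of the 54 windows of the listed genes (46.3%). Counted by gene, 22 of 39 listed genes with a window held it (56.4%), against 21.8% of 27025 genes. Slc2a3 has no window in that table. Of the 17 genes with a window that were lower with Dox at day 2, 10 held a match, and of the other 22 genes 12 did. The other 22 include Fbp1, which has a window but no probe, so the 39 genes with a window are not the 39 measured. The windows of Pgm2 and Fbp2 are counted by name, though the genes their probes measure are not settled. The windows below are those of 4 genes on which the results turn and that hold ACGTG. That of Pfkp, the gene with the largest change at day 4, does not hold it and is shown too. Capitals mark the core, written ACGTG on the printed strand or CACGT where it lies on the other strand. In CACGTG both strands overlap.

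The Slc2a1 window (chr4:119108495-119108794, plus strand) has 1 match, 36 bases before the start. Pgk1 (chrX:106186850-106187149, plus strand) has 2, and Slc16a3 (chr11:120948817-120949116, plus strand) has 2. Ldha (chr7:46845554-46845853, plus strand) has 5, of which 4 lie in 2 copies of CACGTG. Pfkp (chr13:6648722-6649021, minus strand) has 0 matches of ACGTG in this window, which does not cover other forms of the HIF core. Each sequence runs 5′ to 3′ along the gene's strand.
Slc2a1: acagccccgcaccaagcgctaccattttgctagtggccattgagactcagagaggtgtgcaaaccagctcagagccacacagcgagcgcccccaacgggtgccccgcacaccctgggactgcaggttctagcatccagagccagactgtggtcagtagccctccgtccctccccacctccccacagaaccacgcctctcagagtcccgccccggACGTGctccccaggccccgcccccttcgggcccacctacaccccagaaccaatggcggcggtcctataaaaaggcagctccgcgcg
Pgk1: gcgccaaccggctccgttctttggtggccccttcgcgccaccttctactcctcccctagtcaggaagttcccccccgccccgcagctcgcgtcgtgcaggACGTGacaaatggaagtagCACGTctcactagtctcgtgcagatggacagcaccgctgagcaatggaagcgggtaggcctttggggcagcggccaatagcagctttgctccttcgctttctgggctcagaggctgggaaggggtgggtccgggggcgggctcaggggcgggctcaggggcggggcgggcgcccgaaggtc
Ldha: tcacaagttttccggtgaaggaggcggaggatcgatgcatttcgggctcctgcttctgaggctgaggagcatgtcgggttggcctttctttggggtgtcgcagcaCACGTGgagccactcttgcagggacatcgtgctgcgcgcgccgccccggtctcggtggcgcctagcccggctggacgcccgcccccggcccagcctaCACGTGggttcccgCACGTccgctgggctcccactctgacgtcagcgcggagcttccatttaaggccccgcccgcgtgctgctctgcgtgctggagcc
Slc16a3: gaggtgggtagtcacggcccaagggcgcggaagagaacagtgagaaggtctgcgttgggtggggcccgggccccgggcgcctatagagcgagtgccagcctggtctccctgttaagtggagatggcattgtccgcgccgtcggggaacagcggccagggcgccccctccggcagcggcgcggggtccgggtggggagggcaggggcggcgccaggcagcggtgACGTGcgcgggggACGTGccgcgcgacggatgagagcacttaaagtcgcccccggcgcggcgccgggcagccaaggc
Pfkp: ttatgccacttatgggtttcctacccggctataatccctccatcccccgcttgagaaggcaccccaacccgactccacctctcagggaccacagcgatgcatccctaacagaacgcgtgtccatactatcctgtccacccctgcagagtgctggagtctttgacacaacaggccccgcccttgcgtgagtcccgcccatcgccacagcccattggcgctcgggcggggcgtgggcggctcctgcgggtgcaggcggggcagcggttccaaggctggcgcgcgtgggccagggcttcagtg
A match is a run of letters and no evidence of binding.

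All values below are log2 of normalised intensities with the blank-spot background subtracted, and changes are differences of these, with Dox minus without Dox unless stated, given with the standard error (SE) of limma's fit. A change passed where limma's p, adjusted by Benjamini-Hochberg over all probes tested, was below 0.05. Levels of different probes are not compared. Between 86.0% and 89.2% of gene probes per array were above background. Arrays of a group correlated at 0.993 or more and arrays of different groups at up to 0.985, and the number of arrays limits the precision. At day 2 the Tbx6 probe gave a log2 change of -0.20 ± 0.12, which did not pass (adjusted p = 0.395), and at day 4 it rose (0.62 ± 0.12, adjusted p = 0.00916). Leaving out DoxOn_day4 replicate 2 or DoxOFF_day4 replicate 1 ended this call (highest adjusted p 0.0530). The position of that probe relative to the inserted sequence is not given here, so directions are those of the arrays as labelled. Normexp, a model-based background correction, was also applied to the scanner's local background values, which followed each spot's own brightness. With it limma called 0 of the 39 genes in each of the 5 comparisons (2, 6, 4, 5 and 4 at an unadjusted p under 0.05, in the order Dox at day 2, Dox at day 4, their difference, time with Dox and time without Dox). Of all 21670 probes tested it called 1, 0, 0, 3 and 0 in that order. Those with an unadjusted p under 0.05 were 477, 856, 524, 784 and 605.

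Marker genes of several cell types moved with Dox and time. The summed linear intensity of 9 of 11 pluripotent markers was 30534 and 31771 with Dox at day 2 against 28630 and 30715 without, and 12903 and 13072 with Dox at day 4 against 233 and 239 without. That of 9 of 10 neural progenitor markers was 500 and 541 with Dox at day 2 against 875 and 956 without, and 683 on both arrays with Dox at day 4 against 22060 and 22072 without. The 10 primitive streak markers summed to between 187 and 201 with Dox at day 2, between 202 and 224 without, between 2989 and 3069 with Dox at day 4 and between 160 and 172 without, where Mesp1 was not above background. The 10 of 12 visceral endoderm markers summed to 88.1 and 94.8 with Dox at day 2 against 288 and 291 without, and to 90.8 and 91.6 with Dox at day 4 against 58.4 and 73.3 without. Ttr, Apoa1 and Afp were not above background with Dox on either day, nor was Dab2 with Dox at day 4; Afp was at background in all groups, and Apoa1 also without Dox at day 4. The 6 of 9 trophoblast markers summed to 938 and 952 with Dox at day 2 against 261 and 272 without, and to 541 and 544 with Dox at day 4 against 216 and 224 without. The 6 of 8 blood and endothelial markers summed to between 249 and 250 with Dox at day 2, between 182 and 197 without, between 238 and 242 with Dox at day 4 and between 85.0 and 98.2 without, where Pecam1 was not above background. Pou3f4 was not above background without Dox at day 2. A sum is set mostly by its brightest genes, so calls by limma are given too. At day 2, 3 of 9 pluripotent and 3 of 6 trophoblast genes rose with Dox and 0 fell. In the next lists 5 of 9 neural and 2 of 10 streak genes fell and 0 rose. Of 9 visceral endoderm genes tested 6 fell and 1 rose, and of 6 blood and endothelial genes 1 fell and 1 rose. Over all probes 11.8% passed. At day 4, 7 pluripotent, 9 streak, 3 trophoblast and 2 blood and endothelial genes rose and 0 fell, while 8 neural genes fell and 0 rose. Among visceral endoderm genes 3 fell and 2 rose, though their sum was higher with Dox. Over all probes 29.9% passed. The part of these cell types in the results below was not tested, and in such bulk samples fewer cells of a type and less RNA per cell cannot be told apart.

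At day 2 the pathway's genes were mostly lower with Dox. Of 39 genes, 18 fell, 4 rose and 17 did not pass, so 56.4% passed, where 11.8% of all probes tested did. Over all probes 6.24% were called lower and 5.56% higher. The median log2 change of the 39 genes was -0.43, and that of all probes -0.01. The falls ran from glucose entry (Slc2a1) through the splitting of the sugar (Pfkl, Aldoa, Aldoc, Tpi1) to lactate export (Slc16a3), and 11 genes fell at least 2-fold, where 1.55% of all probes did. The 4 rises, Hk1, Tigar, Pdha1 and Pdhb, were all under 2-fold. The count of 22 became 13 and 12 without DoxOn_day2 replicate 1 or 2, and 13 and 14 without DoxOFF_day2 replicate 1 or 2. Over all probes 2557 calls became 1235, 1149, 1322 and 1503 in the same order. The 11 calls that held without any 1 of the 8 arrays were those of the 11 genes that fell at least 2-fold.

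At day 4 the balance ran the other way. With Dox 17 of the 39 genes rose, 7 fell and 15 did not pass, so 61.5% passed, where 29.9% of all probes did (14.4% higher and 15.5% lower). The median log2 change was 0.29, against -0.04 over all probes. The largest rises were in Pfkp, a phosphofructokinase gene, Slc16a3, a lactate transporter gene, and the probe named Pgm2, at 11.3, 6.73 and 4.58-fold. The size for Pfkp rests on a low level without Dox and depends on the background subtracted. In all, 9 genes rose at least 2-fold, where 5.96% of all probes did, and 2 fell at least 2-fold, both of them glucose transporters, where 4.98% of all probes did. Without any 1 array, 15 of the 24 calls held.

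**Figure D1:**
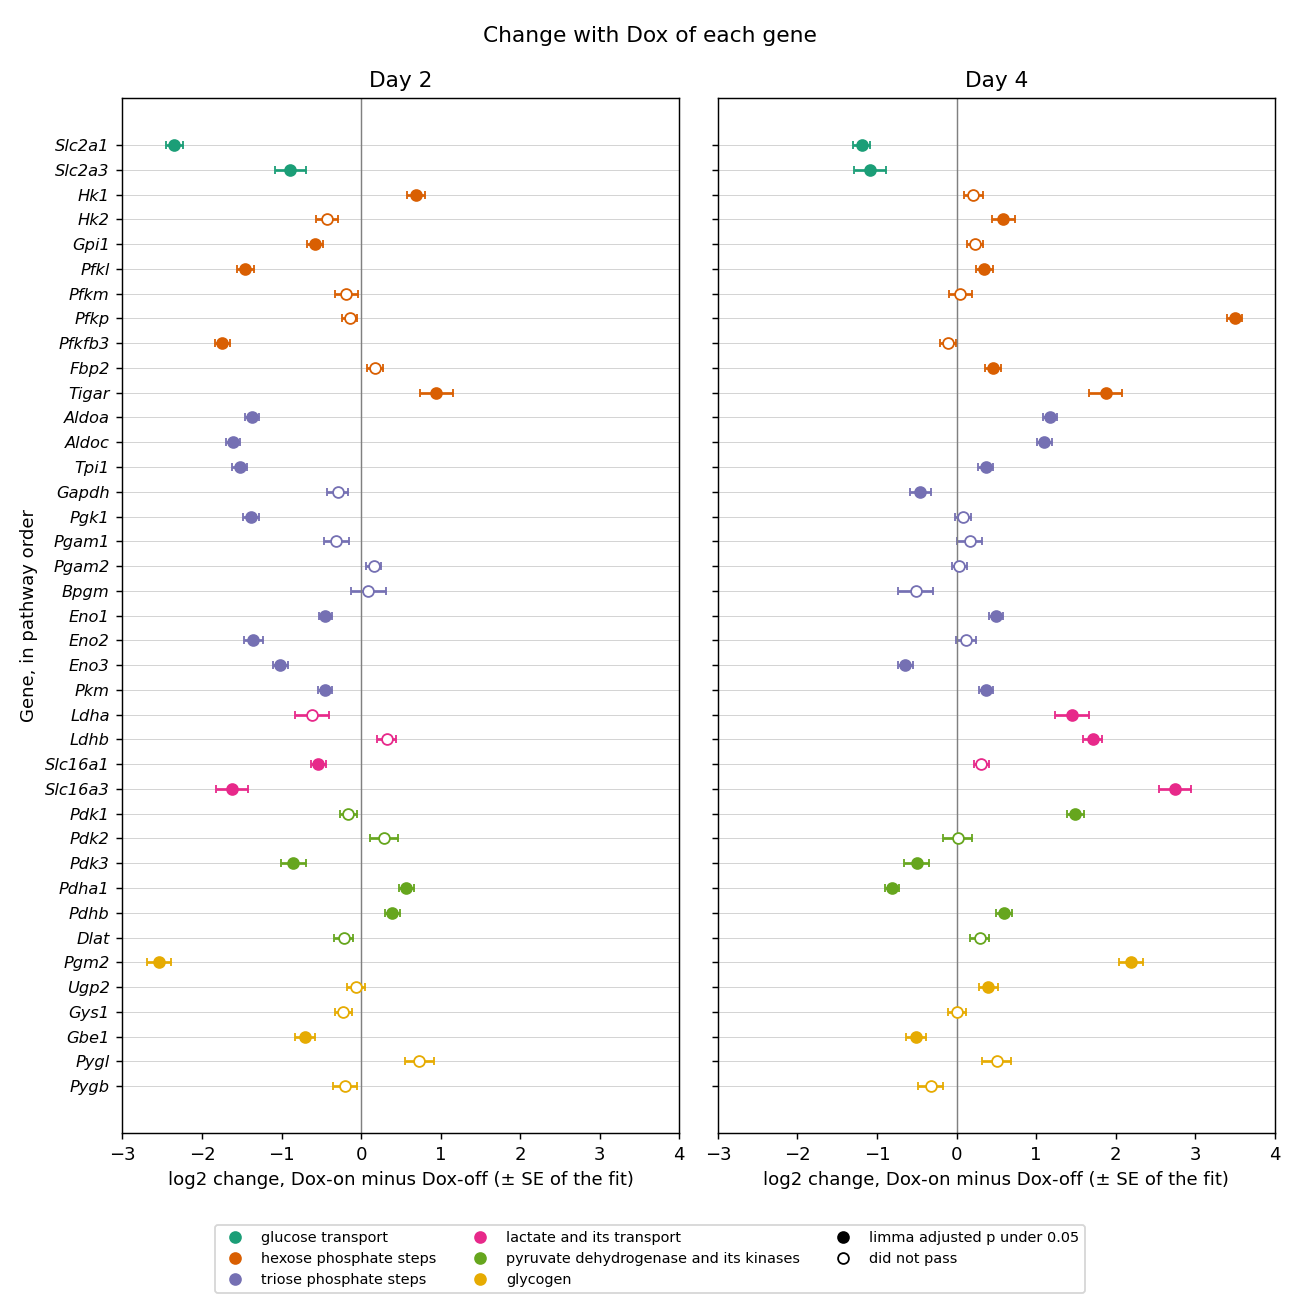
Log2 change with Dox (x axis, with Dox minus without Dox, bars ± SE of the fit) of the 39 genes in pathway order (y axis) at day 2 (left) and day 4 (right). Filled points passed limma's adjusted p of 0.05 and open points did not; 18 filled points lie left of 0 at day 2 and 17 lie right of 0 at day 4.

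The difference between the 2 days was tested as its own term in the fit. The change with Dox was more positive at day 4 than at day 2 for 19 of the 39 genes and more negative for 1, Pdha1, while 19 did not pass. That is 51.3% of the genes, where 22.1% of all probes passed (11.1% higher and 11.0% lower), and the median difference was 0.81, against -0.04 over all probes. All 20 calls held without any 1 of the 8 arrays. Of the 18 genes that fell at day 2, 8 rose at day 4 (Pfkl, Aldoa, Aldoc, Tpi1, Eno1, Pkm, Slc16a3 and Pgm2), 5 fell on both days (Slc2a1, Slc2a3, Eno3, Pdk3 and Gbe1) and 5 did not pass at day 4 (Gpi1, Pfkfb3, Pgk1, Eno2 and Slc16a1). Among those 8, the calls of both days held without any 1 array only for Aldoa, Aldoc, Slc16a3 and Pgm2. Among the 5 that fell on both days they held only for Slc2a1 and Eno3. Tigar and Pdhb rose on both days, but their day-2 calls did not hold without some arrays. A further 7 genes passed only at day 4 and rose there (Hk2, Pfkp, Fbp2, Ldha, Ldhb, Pdk1 and Ugp2), and the difference between days passed for 5 of these, all but Fbp2 and Ugp2. In 9 genes neither day passed: Pfkm, Pgam1, Pgam2, Bpgm, Pdk2, Dlat, Gys1, Pygl and Pygb.

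**Figure D2:**
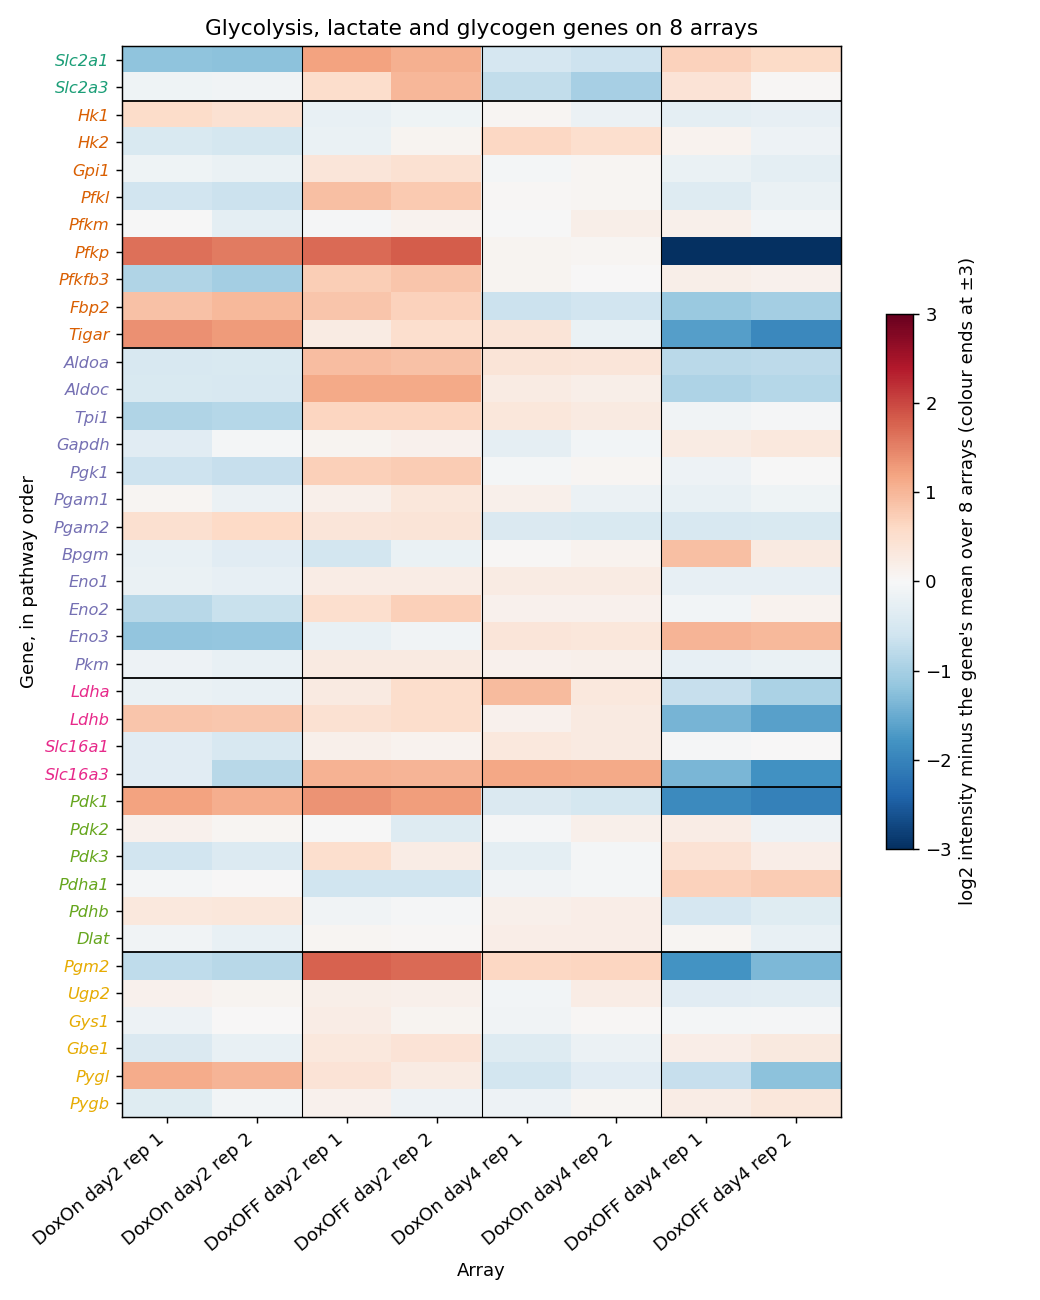
Log2 intensity of each gene minus its own mean over the 8 arrays (colour, ends at ±3), with genes in pathway order down the page and arrays across, with Dox left of without Dox on each day. The rows of Aldoa, Aldoc, Eno1, Pkm, Ldha and Slc16a3 are blue with Dox at day 2, red without Dox at day 2, red with Dox at day 4 and blue without Dox at day 4.

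Both glucose transporter genes were lower with Dox on both days, where 6.24% of all probes were called lower at day 2 and 15.5% at day 4. Slc2a1, which encodes the basal transporter GLUT1, had log2 intensities of 8.50 and 8.47 with Dox against 10.90 and 10.77 without at day 2, and of 9.21 and 9.08 with Dox against 10.39 and 10.28 without at day 4. The groups did not overlap on either day, and Slc2a1 fell 5.09-fold at day 2 (log2 change -2.35 ± 0.10, adjusted p = 9.7e-05) and 2.29-fold at day 4 (-1.19 ± 0.10, adjusted p = 2.4e-04). The fall was smaller at day 4 by 1.15 ± 0.15 on the log2 scale (adjusted p = 0.00209). Slc2a3, for the high-affinity transporter GLUT3, had 9.49 and 9.52 with Dox against 10.16 and 10.63 without at day 2, and 8.88 and 8.62 with Dox against 10.03 and 9.65 without at day 4. It fell by 0.89 ± 0.20 at day 2 (adjusted p = 0.0342) and by 1.09 ± 0.20 at day 4 (adjusted p = 0.00680), and the difference between days did not pass (-0.20 ± 0.28, adjusted p = 0.678). Its day-2 call ended without either DoxOn_day2 array, DoxOFF_day2 replicate 2 or either DoxOn_day4 array (highest adjusted p 0.155), and its day-4 call held.

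In the hexose phosphate steps, where glucose is trapped as a phosphate and readied for splitting, 2 of 9 measured genes rose and 3 fell at day 2, and 5 rose and 0 fell at day 4. So 55.6% passed on each day, where 11.8% of all probes did at day 2 and 29.9% at day 4. Of the hexokinase genes, whose enzymes trap glucose, Hk1 passed at day 2 and Hk2 at day 4. Hk1 rose by 0.69 ± 0.12 at day 2 (adjusted p = 0.0118) and gave 0.21 ± 0.12 at day 4 (adjusted p = 0.232). Its probe was dim, with group means between 3.04 and 3.81. Hk2 gave -0.43 ± 0.14 at day 2 (adjusted p = 0.109) and rose by 0.59 ± 0.14 at day 4 (adjusted p = 0.0203). For Hk2 the difference between days passed (1.02 ± 0.20, adjusted p = 0.0122), and for Hk1 it did not (-0.48 ± 0.16, adjusted p = 0.0855). Gpi1, the phosphoglucose isomerase gene, fell by 0.58 ± 0.10 at day 2 (adjusted p = 0.0118). The Hk1 call at day 2 ended without either DoxOn_day2 array or DoxOFF_day2 replicate 1 (highest adjusted p 0.0776). That of Gpi1 ended without either DoxOn_day2 array or DoxOFF_day2 replicate 2 (at most 0.0708), and the Hk2 call at day 4 without either DoxOn_day4 array or DoxOFF_day4 replicate 2 (at most 0.103).

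Phosphofructokinase commits sugar to glycolysis. Of its 3 subunit genes, Pfkl fell at day 2 and rose slightly at day 4, Pfkp rose at day 4 and Pfkm did not pass. Pfkl, the liver-type subunit gene, had 6.68 and 6.61 with Dox against 8.16 and 8.04 without at day 2, a 2.74-fold fall (-1.46 ± 0.11, adjusted p = 4.9e-04). At day 4 it had 7.28 and 7.32 with Dox against 6.86 and 7.05 without, a rise of 0.35 ± 0.11 (adjusted p = 0.0499). The day-4 groups lay close together without overlapping, and that call ended without any 1 of the 8 arrays other than DoxOFF_day4 replicate 2 (highest adjusted p 0.170). Pfkp, the platelet-type subunit gene, had 8.22 and 8.13 with Dox against 8.26 and 8.38 without at day 2, and the change of -0.14 ± 0.10 did not pass (adjusted p = 0.432). At day 4 it had 6.64 and 6.62 with Dox against 3.17 and 3.10 without, 11.3-fold higher with Dox (3.50 ± 0.10, adjusted p = 1.8e-06). Its level fell over time in both states, by 1.54 ± 0.10 on the log2 scale with Dox (adjusted p = 1.3e-04) and by 5.18 ± 0.10, 36.3-fold, without Dox (adjusted p = 4.2e-07). The Pfkp values of 3.17 and 3.10 were low, though above background. The sizes 11.3-fold and 36.3-fold therefore depend on the background subtracted. Pfkm, the muscle-type subunit gene, had 7.17 and 6.90 with Dox against 7.16 and 7.29 without at day 2, and 7.17 and 7.37 with Dox against 7.33 and 7.11 without at day 4. Its groups overlapped on both days and none of the 5 comparisons passed.

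A sugar phosphate activates phosphofructokinase and is made and broken down by the PFKFB family of enzymes and broken down by TIGAR. Of the listed genes of this step, Pfkfb3 fell and Tigar rose at day 2. Pfkfb3, which encodes an enzyme that makes this activator, had 4.14 and 4.02 with Dox against 5.78 and 5.86 without at day 2, a 3.35-fold fall (-1.74 ± 0.10, adjusted p = 1.8e-04). At day 4 it had 5.11 and 5.05 with Dox against 5.21 and 5.16 without, and -0.10 ± 0.10 did not pass (adjusted p = 0.484). Tigar, whose product breaks the activator down, had 8.41 and 8.31 with Dox against 7.29 and 7.54 without at day 2, and 7.41 and 6.84 with Dox against 5.38 and 5.11 without at day 4. It rose by 0.94 ± 0.21 at day 2 (adjusted p = 0.0314) and by 1.88 ± 0.21, 3.68-fold, at day 4 (adjusted p = 7.2e-04), with no overlap on either day. From day 2 to day 4 Tigar fell in both states, with log2 changes of -1.235 with Dox and -2.17 without. The day-2 call of Tigar ended without any single day-2 array or either DoxOFF_day4 array (highest adjusted p 0.160). The probe named Fbp2, a fructose bisphosphatase symbol, gave 0.17 ± 0.10 at day 2 (adjusted p = 0.371) and rose by 0.46 ± 0.10 at day 4 (adjusted p = 0.0155), a call that ended without DoxOn_day4 replicate 2 or DoxOFF_day4 replicate 1 (at most 0.0676). Over time its level fell in both states, with log2 changes of -1.53 with Dox and -1.82 without.

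The triose phosphate steps, which split the sugar and recover ATP, held 8 of the 18 falls at day 2: of 12 genes 8 fell and 0 rose, and at day 4 5 rose and 2 fell. Thus 66.7% passed at day 2 and 58.3% at day 4, where 11.8% and 29.9% of all probes did. Aldolase splits fructose bisphosphate, and both of its measured genes changed in opposite directions on the 2 days. Aldoa had 12.19 and 12.22 with Dox against 13.60 and 13.55 without at day 2, and 13.06 and 13.04 with Dox against 11.86 and 11.88 without at day 4. It fell 2.58-fold at day 2 (-1.37 ± 0.09, adjusted p = 2.9e-04) and rose 2.26-fold at day 4 (1.18 ± 0.09, adjusted p = 1.1e-04). A second Aldoa probe gave log2 changes of -1.58 and 1.21. Aldoc, the brain-type aldolase gene, had 7.76 and 7.75 with Dox against 9.37 on both arrays without at day 2, and 8.48 and 8.39 with Dox against 7.29 and 7.37 without at day 4. It fell 3.06-fold at day 2 (-1.61 ± 0.09, adjusted p = 2.0e-04) and rose 2.15-fold at day 4 (1.10 ± 0.09, adjusted p = 1.9e-04). The difference between days was 2.55 ± 0.12 for Aldoa (adjusted p = 3.6e-05) and 2.72 ± 0.13 for Aldoc (adjusted p = 3.4e-05). In each of these the levels with Dox at day 4 lay between those with and without Dox at day 2.

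Tpi1, which encodes the isomerase of the triose phosphates, had 10.49 and 10.52 with Dox against 12.03 and 12.04 without at day 2, and 11.72 and 11.66 with Dox against 11.28 and 11.36 without at day 4. It fell 2.88-fold at day 2 (-1.53 ± 0.09, adjusted p = 2.3e-04) and rose 1.29-fold at day 4 (0.37 ± 0.09, adjusted p = 0.0226). Pgk1, for the phosphoglycerate kinase that makes the first ATP, had 11.86 and 11.79 with Dox against 13.19 and 13.23 without at day 2, a 2.61-fold fall (-1.38 ± 0.10, adjusted p = 5.0e-04). At day 4 its 12.42 and 12.54 with Dox overlapped the 12.33 and 12.47 without (0.08 ± 0.10, adjusted p = 0.597). Gapdh, for the dehydrogenase between these 2 steps and a common loading control, gave -0.30 ± 0.13 at day 2 (adjusted p = 0.222) and fell by 0.46 ± 0.13 at day 4 (adjusted p = 0.0386). The day-4 call of Tpi1 ended without either DoxOn_day4 array or DoxOFF_day4 replicate 1 (highest adjusted p 0.0882), and that of Gapdh without any single day-4 array or either DoxOFF_day2 array (at most 0.174). The mutase genes Pgam1, Pgam2 and Bpgm did not pass on either day, with log2 changes between -0.51 and 0.16.

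Enolase makes phosphoenolpyruvate. Its 3 listed genes all fell at day 2, and at day 4 Eno1 rose, Eno3 fell and Eno2 did not pass. Eno1, the widely expressed form, had 13.04 and 13.01 with Dox against 13.48 and 13.47 without at day 2, and 13.49 and 13.50 with Dox against 12.99 and 13.01 without at day 4. It fell by 0.45 ± 0.09 at day 2 (adjusted p = 0.0199) and rose by 0.50 ± 0.09 at day 4 (adjusted p = 0.00539). Eno2, the neuronal form, had 2.99 and 3.17 with Dox against 4.33 and 4.53 without at day 2, a 2.56-fold fall (-1.35 ± 0.12, adjusted p = 0.00109). At day 4 it had 3.95 and 3.96 with Dox against 3.75 and 3.93 without (0.12 ± 0.12, adjusted p = 0.534). These Eno2 values were low, so the size of its changes depends on the background subtracted. Eno3, the muscle form, had 6.42 and 6.45 with Dox against 7.38 and 7.52 without at day 2, and 7.96 and 7.95 with Dox against 8.62 and 8.58 without at day 4. It fell on both days, by 1.02 ± 0.09 (adjusted p = 0.00119) and by 0.64 ± 0.09 (adjusted p = 0.00256), and was higher at day 4 than at day 2 in both states. The day-4 minus day-2 difference of the Dox change passed for Eno1 (0.94 ± 0.12, adjusted p = 0.00222) and Eno2 (1.47 ± 0.17, adjusted p = 0.00148) and not for Eno3 (0.37 ± 0.13, adjusted p = 0.0953). Pkm, for pyruvate kinase, fell by 0.46 ± 0.09 at day 2 (adjusted p = 0.0202) and rose by 0.37 ± 0.09 at day 4 (adjusted p = 0.0201). The day-2 calls of Eno1 and Pkm ended without any single day-2 array (highest adjusted p 0.0935 and 0.0985), and the day-4 call of Pkm without any single day-4 array (at most 0.0708).

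Lactate genes were higher with Dox at day 4: 3 of 4 rose and 0 fell, while at day 2 0 rose and 2 fell. Of these few genes 75% passed at day 4 and 50% at day 2, where 29.9% and 11.8% of all probes did. Ldha, for the lactate dehydrogenase subunit that favours lactate, had 12.69 and 12.65 with Dox against 13.15 and 13.41 without at day 2. The groups did not overlap, but -0.61 ± 0.22 did not pass (adjusted p = 0.133). At day 4 Ldha had 13.82 and 13.19 with Dox against 12.18 and 11.93 without, 2.74-fold higher with Dox (1.45 ± 0.22, adjusted p = 0.00271). Ldhb, for the subunit that favours pyruvate, had 11.89 and 11.85 with Dox against 11.51 and 11.58 without at day 2 (0.32 ± 0.12, adjusted p = 0.150). At day 4 it had 11.16 and 11.32 with Dox against 9.66 and 9.41 without, 3.27-fold higher with Dox (1.71 ± 0.12, adjusted p = 8.1e-05). From day 2 to day 4 Ldhb fell in both states, with log2 changes of -0.62 with Dox and -2.01 without. The difference between days was 2.07 ± 0.31 for Ldha (adjusted p = 0.00391) and 1.39 ± 0.17 for Ldhb (adjusted p = 0.00169).

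Both lactate transporter genes fell at day 2, and at day 4 Slc16a3 rose while Slc16a1 did not pass. Slc16a3, for the lactate exporter MCT4, had 9.48 and 8.97 with Dox against 10.86 and 10.84 without at day 2, and 10.96 and 10.95 with Dox against 8.43 and 7.99 without at day 4. It fell 3.08-fold at day 2 (-1.62 ± 0.20, adjusted p = 0.00388) and rose 6.73-fold at day 4 (2.75 ± 0.20, adjusted p = 1.1e-04), a difference of 4.37 ± 0.29 between the days (adjusted p = 1.2e-04). Slc16a1, for the monocarboxylate transporter MCT1, had 8.09 and 7.95 with Dox against 8.58 and 8.53 without at day 2, and 8.74 and 8.71 with Dox against 8.40 and 8.43 without at day 4. It fell by 0.54 ± 0.10 at day 2 (adjusted p = 0.0146), and 0.31 ± 0.10 at day 4 did not pass (adjusted p = 0.0509). The day-2 call of Slc16a1 ended without DoxOn_day2 replicate 2 or either DoxOFF_day2 array (highest adjusted p 0.0822).

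**Figure D3:**
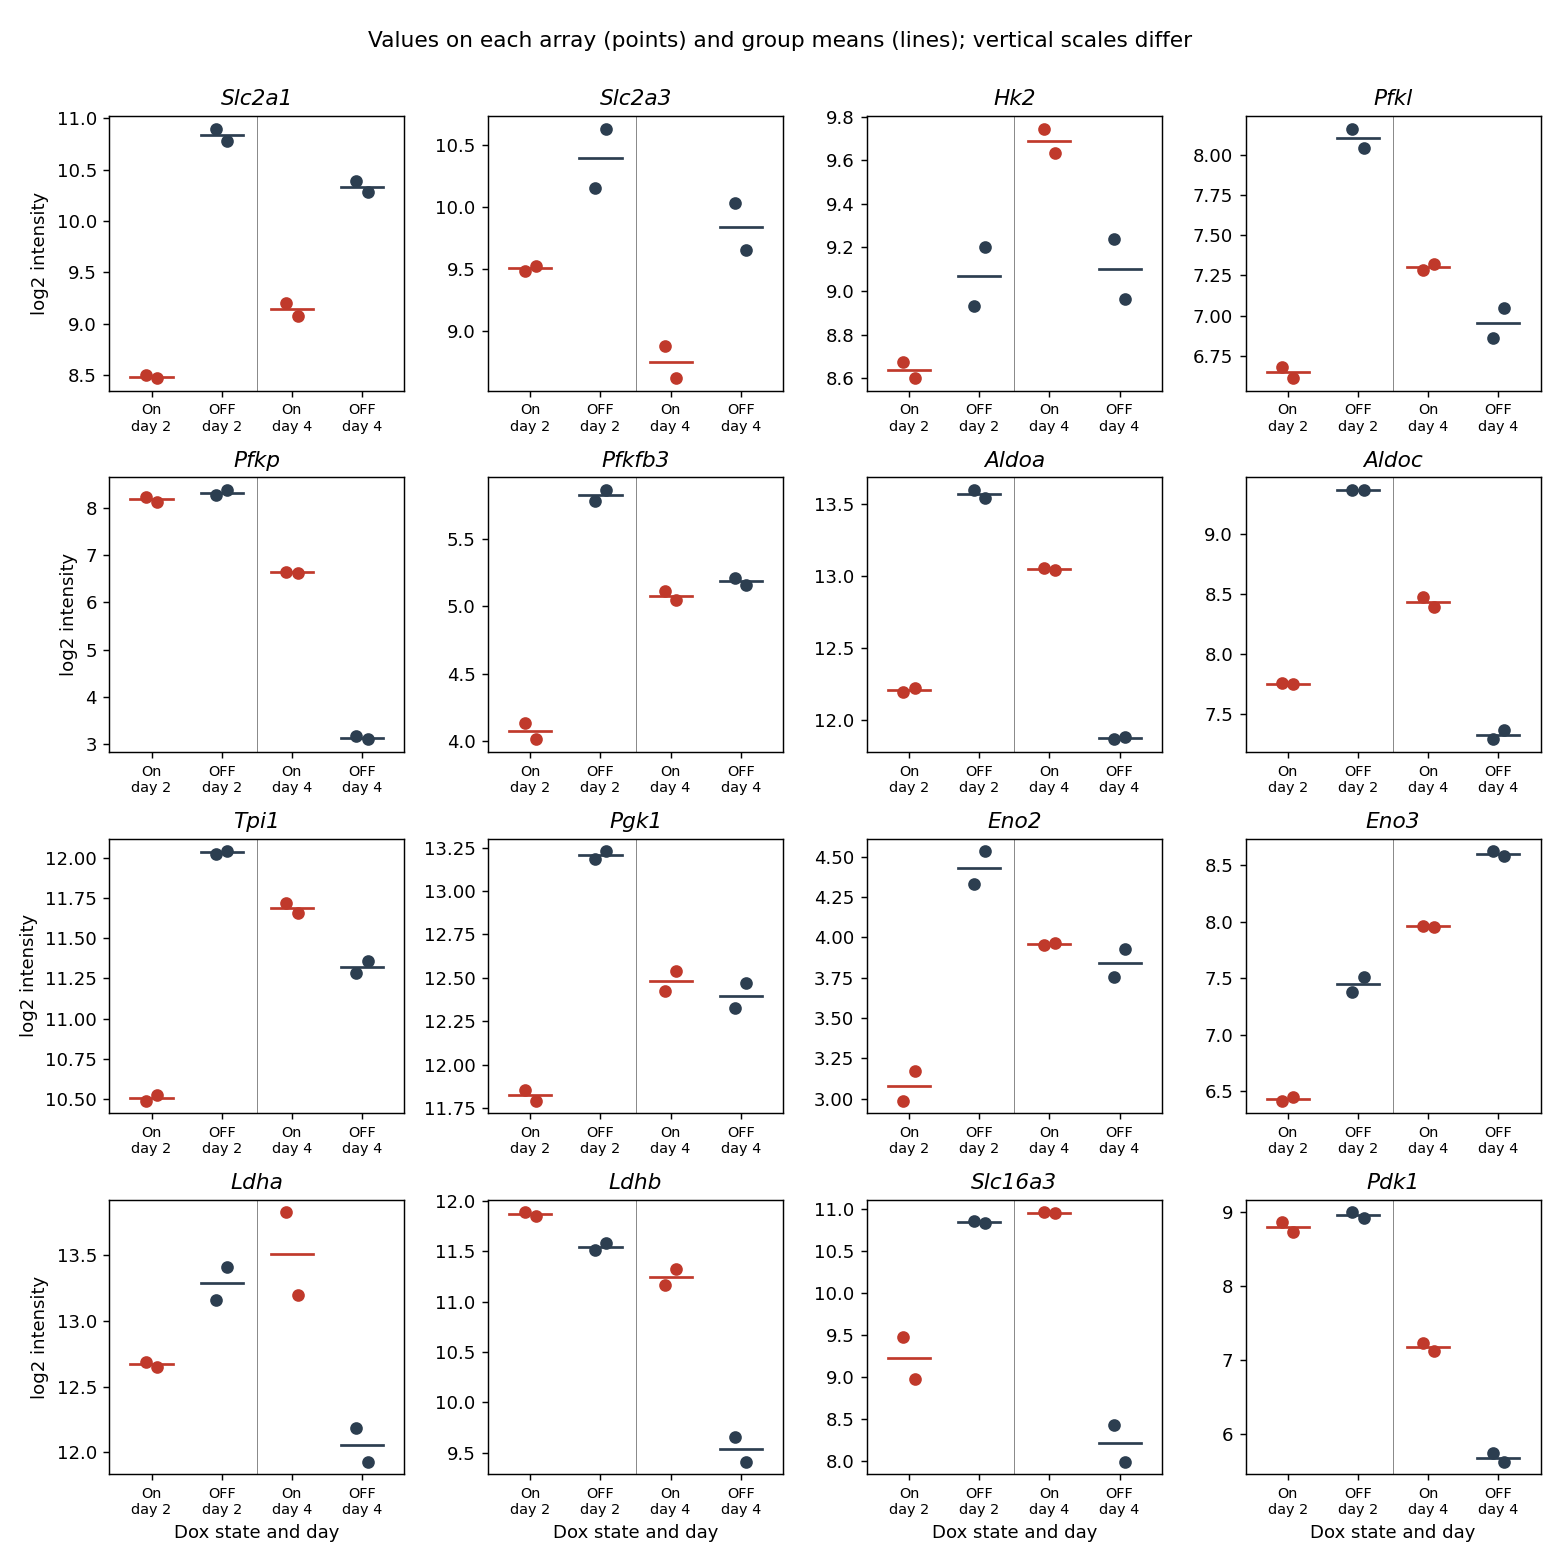
Log2 intensity (y axis, scales differ) of 16 genes on each array (points) with group means (lines), with and without Dox at day 2 and day 4 (x axis). Slc16a3, Aldoa and Aldoc are lower with Dox at day 2 and higher with Dox at day 4, Slc2a1 is lower with Dox on both days, and the changes of Pfkp and Pdk1 passed at day 4 and not at day 2.

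In the pyruvate dehydrogenase complex and its kinases, 2 of 6 genes rose and 1 fell at day 2, and 2 rose and 2 fell at day 4. That makes 50% and 66.7% called, where 11.8% and 29.9% of all probes were. Pdk1, for a kinase that inhibits the complex, had 8.86 and 8.73 with Dox against 8.99 and 8.92 without at day 2 (-0.16 ± 0.10, adjusted p = 0.416). At day 4 it had 7.23 and 7.13 with Dox against 5.74 and 5.62 without, a 2.82-fold rise (1.49 ± 0.10, adjusted p = 8.0e-05). Pdk3, for another kinase, had 7.37 and 7.52 with Dox against 8.44 and 8.15 without at day 2, and 7.64 and 7.87 with Dox against 8.38 and 8.13 without at day 4. It fell by 0.85 ± 0.15 (adjusted p = 0.0157) and by 0.50 ± 0.15 (adjusted p = 0.0494), opposite in direction to Pdk1 at day 4. Pdk2 had 2.89 and 2.82 with Dox against 2.75 and 2.38 without at day 2, and 2.72 and 2.91 with Dox against 2.99 and 2.61 without at day 4, and passed on neither day. The day-2 call of Pdk3 ended without either DoxOn_day2 array or DoxOFF_day2 replicate 1 (highest adjusted p 0.0990), and its day-4 call without any 1 of the 8 arrays (at most 0.217).

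Pdha1 and Pdhb encode the 2 subunits of the complex's first enzyme. Pdha1 had 9.08 and 9.15 with Dox against 8.54 and 8.55 without at day 2, and 9.04 and 9.08 with Dox against 9.83 and 9.91 without at day 4. It rose by 0.57 ± 0.09 at day 2 (adjusted p = 0.00973) and fell by 0.81 ± 0.09 at day 4 (adjusted p = 7.9e-04), the reverse of the order seen for aldolase, with a difference of -1.38 ± 0.13 between days (adjusted p = 5.4e-04). Between the days it gave -0.06 ± 0.09 with Dox (adjusted p = 0.746) and rose by 1.32 ± 0.09 without Dox (adjusted p = 5.8e-05). Pdhb rose by 0.39 ± 0.10 at day 2 (adjusted p = 0.0442) and by 0.60 ± 0.10 at day 4 (adjusted p = 0.00379). Dlat, for the second enzyme of the complex, passed on neither day (-0.22 ± 0.12 and 0.29 ± 0.12). The day-2 call of Pdha1 ended without DoxOn_day2 replicate 2 or DoxOFF_day2 replicate 1 (highest adjusted p 0.0627), and that of Pdhb without any single day-2 array or either DoxOn_day4 array (at most 0.173).

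Among 6 glycogen genes, 0 rose and 2 fell at day 2, and 2 rose and 1 fell at day 4. So few genes gave 33.3% and 50% called, where 11.8% and 29.9% of all probes were. The probe named Pgm2, a phosphoglucomutase symbol whose gene is not settled, had 7.20 and 7.14 with Dox against 9.74 and 9.67 without at day 2, and 8.59 and 8.62 with Dox against 6.18 and 6.63 without at day 4. It fell 5.82-fold at day 2 (-2.54 ± 0.15, adjusted p = 2.5e-04) and rose 4.58-fold at day 4 (2.20 ± 0.15, adjusted p = 8.3e-05). The difference of 4.74 ± 0.22 between the days was the largest of the 39 genes (adjusted p = 3.0e-05). Gbe1, for the branching enzyme, fell by 0.71 ± 0.12 at day 2 (adjusted p = 0.0140) and by 0.51 ± 0.12 at day 4 (adjusted p = 0.0213). Ugp2, for the enzyme that makes the activated glucose of glycogen synthesis, gave -0.06 ± 0.12 at day 2 and rose by 0.40 ± 0.12 at day 4 (adjusted p = 0.0434). Gys1, for glycogen synthase, and the phosphorylase genes Pygl and Pygb passed on neither day, with log2 changes between -0.33 and 0.73. Gbe1's day-2 call ended without DoxOn_day2 replicate 1 or either DoxOFF_day2 array (highest adjusted p 0.0845), and its day-4 call without DoxOn_day4 replicate 1 or either DoxOFF_day4 array (at most 0.106). The Ugp2 call at day 4 ended without any 1 of the 8 arrays other than DoxOn_day4 replicate 1 (at most 0.152).

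Over time, the genes mostly fell without Dox and were split with Dox. These comparisons share arrays with those of Dox and are given as values of their own. With Dox, 16 of 39 genes were higher at day 4 than at day 2, 9 were lower and 14 did not pass, 64.1% called where 19.0% of all probes were (9.63% higher and 9.33% lower). The median log2 change was 0.23, against 0.00 over all probes. Without Dox 3 genes were higher (Bpgm, Eno3 and Pdha1), 23 lower and 13 did not pass, 66.7% called where 38.1% of all probes were (20.2% higher and 17.9% lower). Here the median was -0.50, against 0.04 over all probes, and 12 genes were at least 2-fold lower, where 8.04% of all probes were.

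The largest falls without Dox after Pfkp were in the probe named Pgm2 (-3.30 ± 0.15), Pdk1 (-3.27 ± 0.10), Slc16a3 (-2.64 ± 0.20) and Tigar (-2.17 ± 0.21), each with an adjusted p of at most 2.5e-04. With Dox, Slc16a3 rose by 1.73 ± 0.20 (adjusted p = 0.00159), Eno3 by 1.53 ± 0.09 (adjusted p = 1.3e-04), the probe named Pgm2 by 1.44 ± 0.15 (adjusted p = 0.00110), Tpi1 by 1.18 ± 0.09 (adjusted p = 2.7e-04) and Hk2 by 1.05 ± 0.14 (adjusted p = 0.00288). The genes lower with Dox over time included Pdk1 (-1.62 ± 0.10, adjusted p = 1.4e-04), Pfkp and Pygl, the liver glycogen phosphorylase gene (-1.52 ± 0.19, adjusted p = 0.00197). Without Dox Pygl fell too (-1.29 ± 0.19, adjusted p = 0.00177). Over time with Dox, the calls of Hk1 and Ldhb ended without either DoxOn_day2 array (highest adjusted p 0.0891 and 0.0713), that of Hk1 also without DoxOn_day4 replicate 2 and that of Ldhb also without DoxOn_day4 replicate 1. The call of Slc2a3 ended without either DoxOn_day2 array or any single day-4 array (at most 0.194), that of Tigar without DoxOn_day2 replicate 1 (0.0539) and that of Eno1 without DoxOn_day2 replicate 2 (0.0590). The call of Pkm ended without any 1 of the 8 arrays (at most 0.166), and that of Ldha without any 1 of them other than DoxOn_day4 replicate 2 (at most 0.158). Over time without Dox, the calls of Slc2a1 and Bpgm ended without DoxOFF_day2 replicate 1 (0.0501 and 0.0730) and that of Eno2 without DoxOFF_day2 replicate 2 (0.0503). Those of Pdhb and Ugp2 ended without either DoxOFF_day2 array or DoxOFF_day4 replicate 1 (at most 0.0971 and 0.0699), and that of Ugp2 also without DoxOFF_day4 replicate 2.

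Genes next to the pathway were read from other lists. Of 36 measured genes of other isoforms and side branches of glycolysis and glycogen, 1 rose and 3 fell at day 2, 11.1% of them, where 11.8% of all probes were called, and 7 rose and 6 fell at day 4, 36.1% where 29.9% of all probes were. Slc2a4, for the insulin-responsive transporter GLUT4, fell by 0.74 ± 0.10 at day 2 (adjusted p = 0.00481) and by 0.72 ± 0.10 at day 4 (adjusted p = 0.00173). Pdp1, a pyruvate dehydrogenase phosphatase gene, also fell on both days (adjusted p = 0.00313 and 0.0179). Its day-2 call held without any 1 array, and its day-4 call ended without DoxOn_day4 replicate 1 or either DoxOFF_day4 array (at most 0.0892). Pck2, for the mitochondrial enzyme that makes phosphoenolpyruvate from oxaloacetate, had 8.14 and 8.06 with Dox against 8.37 and 8.35 without at day 2, and 9.19 and 9.25 with Dox against 6.32 and 6.38 without at day 4. It was 7.32-fold higher with Dox at day 4 (2.87 ± 0.09, adjusted p = 2.9e-06). Ldhc, for the testis-type lactate dehydrogenase subunit, rose by 0.95 ± 0.20 at day 2 (adjusted p = 0.0285) and 6.32-fold at day 4 (2.66 ± 0.20, adjusted p = 1.3e-04). Bsg, for the chaperone of the lactate transporters, fell by 0.47 ± 0.10 at day 2 (adjusted p = 0.0259) and rose by 0.35 ± 0.10 at day 4 (adjusted p = 0.0349). The day-2 calls of Ldhc and Bsg ended without any single day-2 array (highest adjusted p 0.150 and 0.123), which left 2 genes lower and 0 higher at day 2, and the day-4 call of Bsg ended without any 1 of the 8 arrays (at most 0.130). At day 4 the 13 calls of this list became 8 without DoxOn_day4 replicate 2 or DoxOFF_day4 replicate 1 and 7 without DoxOFF_day4 replicate 2.

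The pentose phosphate branch and the citric acid cycle were called about as often at day 4 as all probes were. Of 6 pentose phosphate genes 1 rose at day 2 (16.7%, where 11.8% of all probes were called), and 1 rose and 1 fell at day 4 (33.3%, where 29.9% of all probes were). Pgd, for phosphogluconate dehydrogenase, rose by 0.56 ± 0.12 at day 2 (adjusted p = 0.0310) and by 0.42 ± 0.12 at day 4 (adjusted p = 0.0421). Its day-2 call ended without any single day-2 array (highest adjusted p 0.158) and its day-4 call without any 1 of the 8 arrays (at most 0.181). Rpia, for ribose phosphate isomerase, fell by 0.52 ± 0.10 at day 4 (adjusted p = 0.00684). Of 15 citric acid cycle genes 0 passed by limma at day 2 (1 at an unadjusted p under 0.05, lowest adjusted p = 0.144 for Suclg2), and 2 rose and 2 fell at day 4 (26.7%, where 29.9% of all probes were called). Idh3a, for a subunit of isocitrate dehydrogenase, rose by 1.09 ± 0.18 at day 4 (adjusted p = 0.00399) and Ogdh, for oxoglutarate dehydrogenase, by 0.71 ± 0.10 (adjusted p = 0.00202), while Sucla2 and Sdhc, for subunits of the enzymes of succinate, fell by 0.57 ± 0.09 (adjusted p = 0.00384) and 0.50 ± 0.10 (adjusted p = 0.00972).

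Known HIF targets outside glycolysis, which share no enzyme with the pathway, were also mostly lower at day 2. Of 14 measured, 9 fell and 0 rose at day 2 (median -1.01), so 64.3% were called where 11.8% of all probes were. At day 4, 6 rose and 4 fell (median 0.06), 71.4% where 29.9% of all probes were called. The difference between days was higher for 8 and lower for 2 (median 1.20), 71.4% where 22.1% of all probes were called. The 2 lower calls, of Bnip3l and Kdm3a (adjusted p = 0.0385 and 0.0382), became 1 without DoxOn_day4 replicate 1 or DoxOFF_day4 replicate 1 and 0 without any 1 of the other 6 arrays (highest adjusted p 0.118 and 0.107), while the higher calls stayed at 8. Adm, for the vessel-acting peptide adrenomedullin, had 2.57 and 1.85 with Dox against 8.24 and 8.51 without at day 2, and 4.66 and 4.50 with Dox against 1.66 and 1.04 without at day 4. Only 1 of the 2 arrays without Dox at day 4 measured Adm above background and the other was at the floor, so its day-4 change and the SE depend on that floor. Egln3, a prolyl hydroxylase gene that stands in both the target and the oxygen sensing list, had 5.30 and 5.04 with Dox against 7.50 and 7.94 without at day 2, and 6.73 and 6.19 with Dox against 2.59 and 3.25 without at day 4. Both followed the order of Slc16a3, lower with Dox at day 2 (-6.17 ± 0.29, adjusted p = 9.7e-05 and -2.55 ± 0.28, adjusted p = 0.00254) and higher at day 4 (3.23 ± 0.29, adjusted p = 2.5e-04 and 3.54 ± 0.28, adjusted p = 1.6e-04). Vegfa, the vessel growth factor gene, changed by -1.17 ± 0.16 (adjusted p = 0.00616) and 1.40 ± 0.16 (adjusted p = 9.6e-04). Its day-2 call ended without DoxOn_day2 replicate 2 (adjusted p = 0.05002). Other targets did not follow this order. P4ha1 was lower with Dox on both days (adjusted p = 0.00521 and 0.00696), and so was Mxi1 (adjusted p = 0.0222 and 0.0267). The day-4 call of P4ha1 ended without DoxOFF_day4 replicate 2 (0.0534). Both calls of Mxi1 ended without some arrays (at most 0.124 and 0.126). At day 4 the 10 calls of this list became 6, 4 higher and 2 lower, without DoxOn_day4 replicate 2 or DoxOFF_day4 replicate 2. Of the 10 oxygen sensing genes, 0 rose and 2 fell at day 2 (Egln1 and Egln3, 20%, where 11.8% of all probes were called), and 3 rose (Egln3, Hif3a and Arnt) and 1 fell (Vhl) at day 4 (40%, where 29.9% of all probes were). Hif3a, for another HIF subunit, had 4.25 and 4.36 with Dox against 4.78 and 4.67 without at day 2, and 5.48 and 5.70 with Dox against 3.69 and 4.11 without at day 4. It gave -0.42 ± 0.16 at day 2 (adjusted p = 0.160) and rose by 1.69 ± 0.16 at day 4 (adjusted p = 3.5e-04), and the difference of 2.11 ± 0.23 passed (adjusted p = 9.8e-04). Arnt was above background on 1 of the 2 arrays without Dox at day 4. Its call ended without either DoxOFF_day2 array, DoxOn_day4 replicate 1 or either DoxOFF_day4 array (highest adjusted p 0.223), and that of Vhl without any single day-4 array (at most 0.0652). Hif1a, for the oxygen-regulated HIF subunit, did not pass on either day (0.15 ± 0.09, adjusted p = 0.383 and -0.16 ± 0.09, adjusted p = 0.249), while Egln1, the main prolyl hydroxylase gene, fell 4.37-fold at day 2 (-2.13 ± 0.13, adjusted p = 2.4e-04) and gave -0.09 ± 0.13 at day 4 (adjusted p = 0.662). HIF protein and oxygen were not measured on these arrays.

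**Figure D4:**
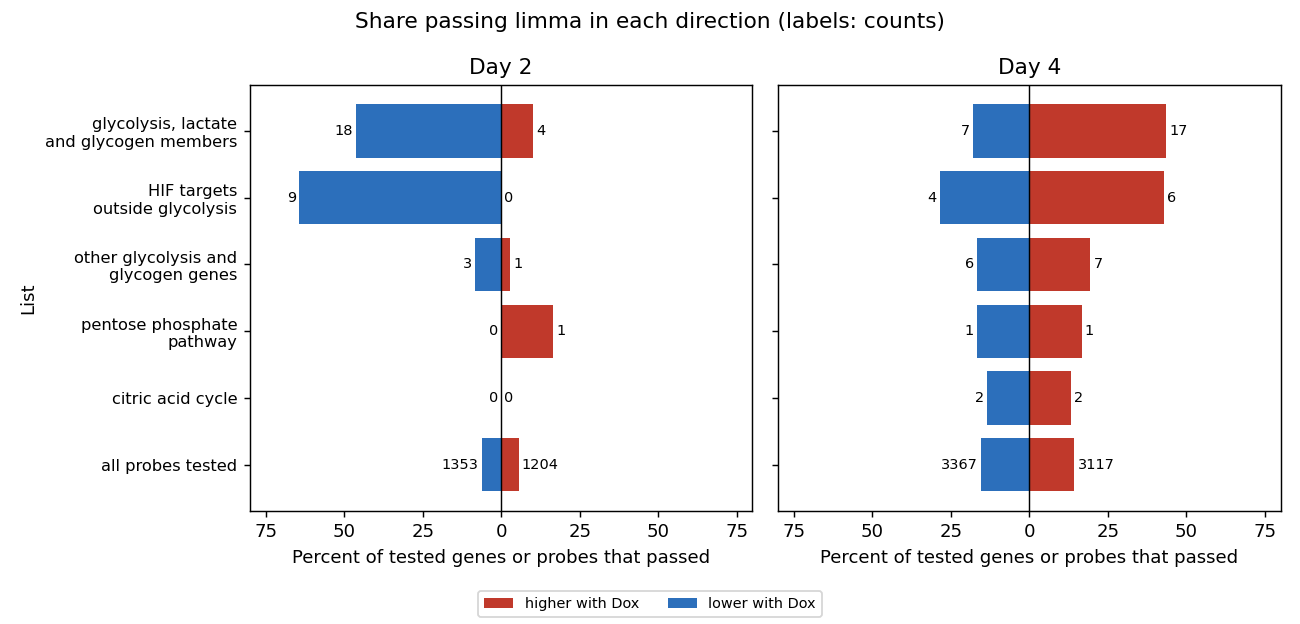
Percent of tested genes of each list, and of all probes tested, that were higher (right of 0) or lower (left of 0) with Dox by limma at an adjusted p under 0.05, at day 2 (left) and day 4 (right), with counts beside the bars. At day 2 the bars of the 39 pathway genes (18 lower, 4 higher) and of the HIF targets (9 lower, 0 higher) reach far left, and at day 4 the pathway bar lies mostly right (17 higher, 7 lower).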

How the data were processed

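Arrays were Toray 3D-Gene oligonucleotide arrays read at 635 nm with Cy5, 2 per group, grouped and numbered by their titles. Per the file headers, the authors deposited a median spot intensity fitted over 3 scanner gains, with no background subtracted and no scaling between arrays. The authors' processed table of intensity was, on every array, a straight line of the blank-subtracted values, scaled to a median of 25, and served as an alternative. RNA was amplified to amino allyl aRNA and coupled to the dye, per the labels' protocols; the scanner software is not stated.

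From each spot the mean of the array's 2734 to 2736 blank spots (52.3 to 60.9, SD 0.871 to 1.37) was subtracted. Normexp on the local background was run as an alternative only, because on each array that background rose and fell with spot brightness (correlation of logs 0.984 to 0.998). Values were quantile normalised, floored at 2.06 and put on the log2 scale. A probe was above background when it exceeded the blank mean by 2 SD, and tests used the 21670 gene probes above background on 2 or more arrays, leaving out 1803. Between 0 and 4 poor gene spots per array were left out. Between 20197 and 20927 gene probes per array were above background.

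Probes were named from the platform annotation (16631 with 1 symbol, 0 with several, 6842 with none) and 3947 old symbols were updated with RefSeq synonyms of GRCm38.p6. The brightest probe stood for a gene. limma 3.58.1 (R 4.3.3) fitted 1 mean per group over 8 arrays (residual df 4, prior df 2.70), with Benjamini-Hochberg adjustment over all probes tested, 2-sided, threshold 0.05. The fit was tested on simulated data. Every listed gene is accounted for, and values on each array are given for genes that passed with at least a 2-fold change on either day and for isoforms of the same step; other genes come from lists named in the text. The genes and lists were chosen with earlier results of these data known, so the fall of glycolysis genes at day 2 is no independent finding. Alternatives were other background corrections, scalings, filters and probe rules, the authors' values, fits of 4 arrays, a replicate block and leaving out each array. The headers give no slide or scan date, so no such block was fitted. No label states whether replicate numbers pair the arrays. Correlations of replicate differences were -0.27 to 0.23 over 6 pairs of groups, which cannot settle it with 2 arrays per group. jsonlite 2.0.0 read the labels and matplotlib 3.10.9 drew the figures.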

Additional observations from a re-analysis of the deposited data

Results flagged for a closer look

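The change with Dox differed between day 4 and day 2 in 20 of the 39 genes by the test of that difference in limma's fit (adjusted p at most 0.0122), and this is what singles them out. That is 51.3% of the genes, where 22.1% of all probes tested passed. The day-4 minus day-2 difference of the Dox change, on the log2 scale, was 4.74 for the probe named Pgm2, 4.37 for Slc16a3, 3.64 for Pfkp, 2.72 for Aldoc, 2.55 for Aldoa and 2.07 for Ldha. It was 1.89 for Tpi1, 1.80 for Pfkl, 1.65 for Pdk1, 1.64 for Pfkfb3, 1.47 for Eno2, 1.47 for Pgk1 and 1.39 for Ldhb. It was 1.15 for Slc2a1, 1.02 for Hk2, 0.94 for Eno1, 0.85 for Slc16a1, 0.82 for Pkm and 0.81 for Gpi1, and -1.38 for Pdha1. Of these 20 genes, 8 were called lower at day 2 and higher at day 4 (Pfkl, Aldoa, Aldoc, Tpi1, Eno1, Pkm, Slc16a3 and the probe named Pgm2), 1 was called higher at day 2 and lower at day 4 (Pdha1), and 1 was called lower on both days (Slc2a1). Among these, the calls of both days held without any 1 array only for Aldoa, Aldoc, Slc16a3, the probe named Pgm2 and Slc2a1.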

How the results depend on the processing

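With normexp on the local background column the counts of called genes were 0 for Dox at day 2, 0 for Dox at day 4, 0 for their difference, 0 over time with Dox and 0 without, and 41 log2 changes of called genes turned sign; the cause was not tested. At an unadjusted p under 0.05 it gave 2, 6, 4, 5 and 4 genes. Normexp called 1, 0, 0, 3 and 0 of all 21670 probes in that order, and gave 477, 856, 524, 784 and 605 at that unadjusted p. Under it, for Dox at day 2, Aldoa gave 0.11, Tpi1 0.12, Eno1 0.74, Eno2 0.013, Eno3 0.075, Pkm 0.47, Slc16a1 0.061, Pdk3 0.21, Pdha1 -0.32, Pdhb -0.049 and Pgm2 0.32. For Dox at day 4, Hk2 gave -1.19, Tigar -0.0031, Ldha -2.08, Pdk1 -0.043, Pgm2 -0.24 and Gbe1 0.041. For the difference between days, Hk2 gave -1.35, Pkm -0.20, Ldha -2.25, Ldhb -0.57, Slc16a1 -0.14 and Pgm2 -0.56. Over time with Dox, Slc2a1 gave -0.074, Hk2 -1.14, Fbp2 0.0060, Pgam2 0.029, Pkm -0.25, Ldha -2.95, Slc16a1 -0.036, Slc16a3 -0.33, Pdk1 0.20 and Pgm2 -0.18. Over time without Dox, Tpi1 gave 1.53, Pgk1 1.86, Pgam2 0.069, Bpgm -0.23, Eno2 0.0077, Ldhb 0.13, Pdhb 1.26 and Pgm2 0.38. No sign of a called gene turned under any other alternative run.

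Without 1 array each, the counts of called genes lay between 12 and 22 for Dox at day 2 (22 with all arrays; 13 and 12 without DoxOn_day2 replicate 1 or 2, 13 and 14 without DoxOFF_day2 replicate 1 or 2), between 16 and 21 for Dox at day 4 (24), between 20 and 22 for their difference (20), between 19 and 23 over time with Dox (25) and between 23 and 26 without (26). Calls over all probes also became fewer, at 1149 to 2267 (2557), 4639 to 6119 (6484), 3464 to 3924 (4796), 2420 to 3841 (4109) and 6486 to 8005 (8266). With a replicate block the counts were 20, 21, 20, 23 and 26; the numbers share no stated culture, and the correlations of replicate differences lay between -0.27 and 0.23. The other settings kept every count within 1.5 times: no background correction gave 23, 26, 22, 26 and 26, 75th percentile scaling 21, 23, 20, 23 and 28, the authors' processed values 21, 22, 20, 22 and 27, and the 4 arrays compared 16, 16, 21 and 24, with no value for the difference. A block for slide or scan date was not run. With 2 arrays per group, the number of arrays limits the precision; all 39 genes were above background on all 8 arrays.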
